A study of Mus musculus with 4 samples.

Results

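Scavenger receptors of macrophages are described here in the lungs of mice given amiodarone, dabigatran or both drugs. The 8 genes were taken by symbol, as Marco, Msr1, Mrc1, Cd36, Scarb1, Stab1, Cd163 and Olr1, and each was found on 1 of the 17780 rows of the gene expression table. Poly(A) RNA was sequenced from lung of C57BL/6 mice (C57BL/6J in the study's methods), with 1 library for each of 4 groups, treated with vehicle, amiodarone, dabigatran, or amiodarone and dabigatran together. Per the study's methods, the mice were male and aged 6 to 7 weeks when purchased, the vehicle was carboxymethylcellulose given by mouth, amiodarone hydrochloride was given at 300 mg per kg and dabigatran etexilate at 60 mg per kg, each 5 times per week, and the RNA came from the left lung. The labels give 28 days of treatment and the methods give day 26 for the tissue. The sources used here do not say whether a library holds RNA of 1 mouse or of several, and no group has a replicate, so every difference below compares libraries.

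Scavenger receptors are surface proteins that bind modified lipoproteins, microbial surfaces, dying cells and inhaled particles, and carry what they bind into the cell. Macrophages use them to clear debris, and those in the airspace also take up surfactant lipid. Several of these genes are not restricted to macrophages: Cd36 and Scarb1 are also transcribed in endothelial, adipose and other lipid-handling cells, and Stab1 in some endothelial cells. Amiodarone is an antiarrhythmic drug that accumulates in lysosomes, and dabigatran inhibits thrombin.

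The values were read as FPKM, a level corrected for transcript length and sequencing depth, so that levels can be compared between genes. Over the mean of the 4 libraries the order was Cd36 at 304 FPKM, Scarb1 at 50.7, Stab1 at 13.6, Mrc1 at 9.82, Marco at 5.67, Olr1 at 2.33, Msr1 at 1.90 and Cd163 at 1.12 FPKM. The ranges of Cd36 (278 to 336 FPKM) and of Scarb1 (47.7 to 54.3 FPKM) overlapped with no other member. From Stab1 downwards the ranges of neighbours overlapped, so that these places in the order did not hold in every library. In the vehicle library Marco stood at 1.66 FPKM beside Stab1 at 13.7, and in the library of both drugs at 12.2 FPKM beside Stab1 at 11.7. The highest library was 7.37 times the lowest for Marco, 3.97 times for Msr1, 2.97 times for Olr1, 2.15 times for Mrc1 and 1.85 times for Cd163, but 1.36 times for Stab1, 1.21 times for Cd36 and 1.14 times for Scarb1.

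**Figure D1:**
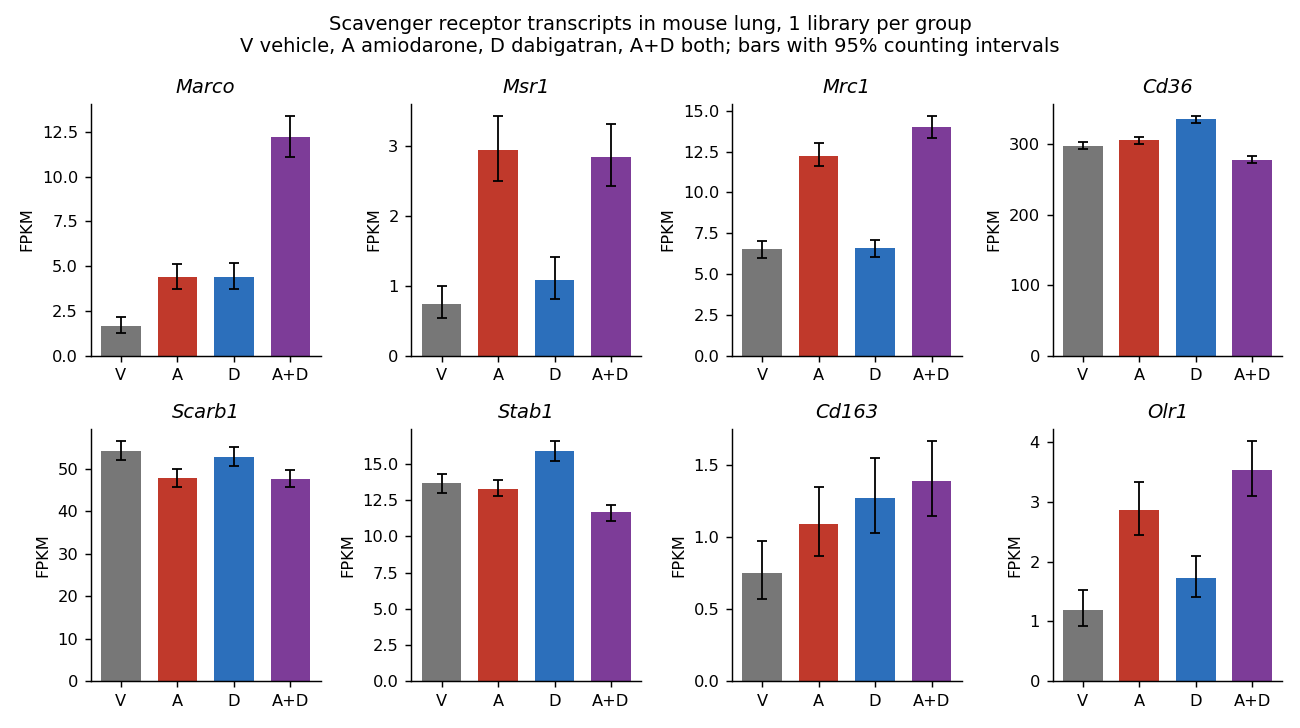
Bars show FPKM of each scavenger receptor in the vehicle (V), amiodarone (A), dabigatran (D) and combined (A+D) library, on axes that start at 0, and whiskers show the 95% counting interval (exact Poisson) of that library. Marco stepped up from 1.66 FPKM to 4.39 and 4.41 FPKM with the single drugs and to 12.2 FPKM with both, while Msr1 and Mrc1 were high in the 2 libraries with amiodarone and Cd36 and Scarb1 stayed within a narrow range.

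The libraries held 17498486 to 18903401 reads on genes. The lung epithelial genes used as a check on the tissue were abundant in all 4, with Sftpc, the surfactant protein of alveolar type 2 cells, at 19587 to 20385 FPKM. Many markers of immune cells, but not all, were higher with amiodarone, and their part in the results on the receptors was not tested. Of 11 general macrophage genes, all at or above 1 FPKM, 6 were at least 1.5-fold higher with amiodarone than with vehicle, and the summed level was 4129.8 FPKM in the vehicle library, 6072 under amiodarone, 4472 under dabigatran and 5709.9 FPKM under both drugs. Most of this sum was Lyz2, a lysozyme gene that alveolar type 2 cells also transcribe, at 3396, 4907, 3693 and 4618 FPKM. The other 5 genes, Lyz2 among them, were within 1.5-fold. Among the defining genes, Adgre1, which encodes F4/80, was at 4.16, 7.69, 4.61 and 8.98 FPKM for these libraries, and Csf1r, the receptor that macrophages need for survival, at 38.7, 40.7, 40.9 and 44.9 FPKM. Aif1, which encodes the macrophage protein Iba1, was at 3.56, 3.78, 3.86 and 2.97 FPKM. Of 13 alveolar macrophage genes amiodarone against vehicle gave 6 higher and 3 lower. All 6 neutrophil genes were at least 1.5-fold higher in both libraries with amiodarone than in their counterparts without it, and the sum over these genes was 91.1 FPKM with vehicle and 595 with amiodarone. The summed level of 4 red blood cell genes was 6319 FPKM with both drugs and 11387 to 15746 FPKM in the other libraries. In whole tissue, more cells of a type and more RNA per cell cannot be told apart.

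Differences were counted when they reached 1.5-fold on the log2(FPKM + 1) scale, and only where a library of the pair had at least 1 FPKM. This scale understates the change of genes near or below 1 FPKM. All 8 members could be compared in each of the 4 comparisons. With amiodarone against vehicle 4 of the 8 were higher (Marco, Msr1, Mrc1 and Olr1) and 0 were lower, where 4.34% of all 13402 genes were higher and 3.93% lower. With both drugs against dabigatran 4 members, the same genes, were higher and 0 were lower, where 3.25% of 13379 genes were higher and 2.04% lower. Dabigatran against vehicle gave 1 higher member, Marco, and 0 lower, where 0.449% of 13373 genes were higher and 0.508% lower. Both drugs against amiodarone also gave Marco as the 1 higher member and 0 lower, where 1.06% of 13261 genes were higher and 1.22% lower. The median log2 difference over the members was 0.54 for amiodarone against vehicle and 0.40 for both drugs against dabigatran, beside -0.05 and -0.01 over all genes. For dabigatran against vehicle it was 0.23, beside 0.00, and for both drugs against amiodarone 0.09, beside 0.03. At a threshold of 2-fold on this scale the counts for the amiodarone comparisons were 2 without dabigatran (Marco and Msr1) and 1 with it (Marco). The share of all genes at 2-fold was not counted. Without the added 1 FPKM more members exceeded 2-fold. The FPKM ratio of Olr1 was 2.41 for amiodarone against vehicle. For both drugs against dabigatran the FPKM ratios were 2.63 for Msr1, 2.13 for Mrc1 and 2.05 for Olr1. No test across animals could be made with 1 library per group, and the intervals below (exact, 95%) cover counting error of the reads only.

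**Figure D2:**
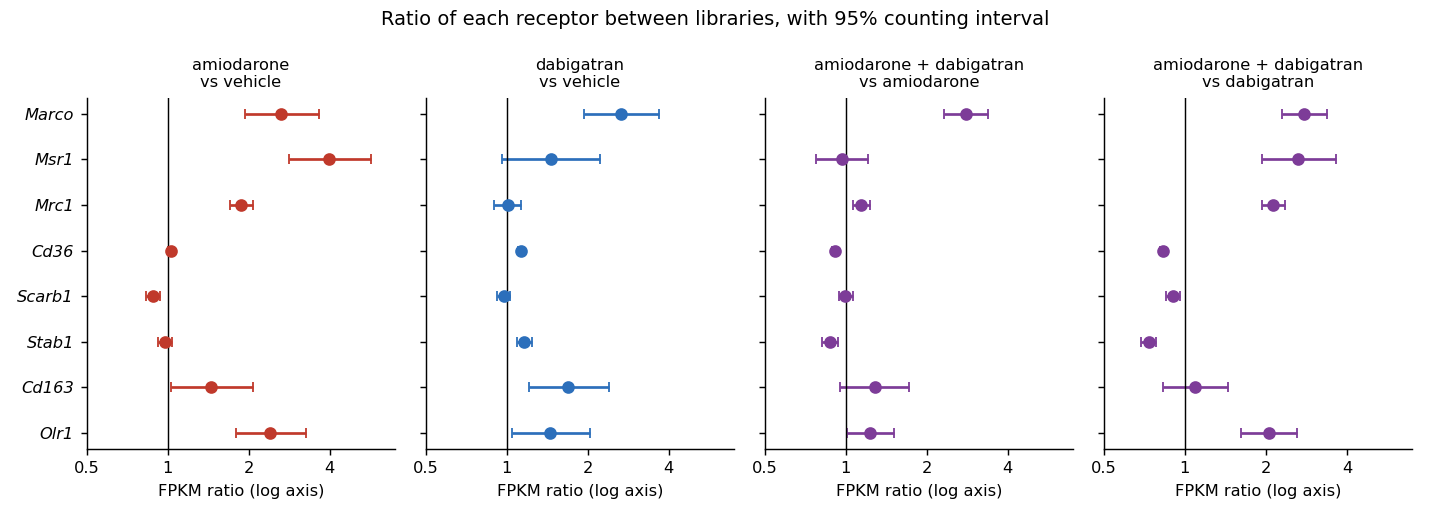
Points show the ratio of FPKM between the libraries named above each panel, on a log axis, and whiskers the exact 95% interval from the read counts, which covers counting error only. Marco lies right of 1 in every panel, at 2.64 to 2.79, and Msr1, Mrc1 and Olr1 lie at 1.88 to 3.97 in the 2 panels that compare libraries with and without amiodarone and at 0.966 to 1.46 in the others.

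The reference holds a RefSeq promoter window (GRCm38.p6, 250 bases before to 50 after 1 annotated start) for 6 of the members, Marco, Mrc1, Cd36, Stab1, Cd163 and Olr1, and for neither Msr1 nor Scarb1. The start used for Cd36 lies 53063 bases inside the gene as given below and that for Olr1 185 bases inside it, while the other 4 lie within 15 bases of where the gene begins, and distances below are from the start used for the window. The windows of the genes that passed the threshold with amiodarone are shown, with matches to 4 short motifs in capitals, which were searched on both strands: GAGGAA, the core bound by the myeloid factor PU.1, TGANTCA, the AP-1 site, TGACNNNGC, the core of the antioxidant response element, and AGGTCA, the hexamer bound by nuclear receptors.
Marco, chr1:120504975-120505274, minus strand: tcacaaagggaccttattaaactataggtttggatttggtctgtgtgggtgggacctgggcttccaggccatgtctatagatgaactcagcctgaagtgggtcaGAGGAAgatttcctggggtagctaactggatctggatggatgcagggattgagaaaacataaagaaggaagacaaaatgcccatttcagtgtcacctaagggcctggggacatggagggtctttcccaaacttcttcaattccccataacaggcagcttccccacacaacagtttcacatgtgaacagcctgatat
Mrc1, chr2:14229164-14229463, plus strand: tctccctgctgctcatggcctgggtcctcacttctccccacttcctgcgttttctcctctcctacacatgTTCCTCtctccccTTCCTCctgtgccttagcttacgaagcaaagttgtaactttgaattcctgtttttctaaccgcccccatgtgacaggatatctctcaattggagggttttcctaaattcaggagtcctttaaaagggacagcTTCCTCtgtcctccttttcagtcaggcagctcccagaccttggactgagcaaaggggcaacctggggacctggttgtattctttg
Olr1, chr6:129507116-129507415, minus strand: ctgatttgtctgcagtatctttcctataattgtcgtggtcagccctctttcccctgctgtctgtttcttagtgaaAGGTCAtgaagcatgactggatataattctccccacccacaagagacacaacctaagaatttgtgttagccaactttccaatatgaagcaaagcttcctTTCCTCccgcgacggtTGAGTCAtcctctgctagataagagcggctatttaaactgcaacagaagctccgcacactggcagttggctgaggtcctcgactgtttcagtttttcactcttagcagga
GAGGAA or its complement was found in Marco 146 bases before the start, in Mrc1 180, 167 and 35 bases before it, and in Olr1 76 bases before it. Of 32544 distinct promoter windows of this length 28.1% hold this motif. Olr1 also held an AP-1 match, TGAGTCA, 60 bases before the start, and AGGTCA at 175 bases. These occur in 7.79% and 16.2% of all windows, and no capitals in these windows overlap. The antioxidant core, present in 12.4% of all windows, matched in 0 of the 6. In the members that did not pass the threshold, Stab1 had GAGGAA 30 bases before its start, Cd36 had the complement of AGGTCA at 228 bases, and Cd163 had none of the 4 motifs. A match is a run of letters in these windows and was not tested as a site.

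Marco (chromosome 1, 120474538 to 120505024 of GRCm38.p6) encodes a class A receptor with a collagen-like stalk that binds unopsonized particles and bacteria, and it is a known marker of alveolar macrophages. It had 1.66 FPKM (56 reads) in the vehicle library, 4.39 FPKM (159 reads) under amiodarone, 4.41 FPKM (151 reads) under dabigatran and 12.2 FPKM (447 reads) under both drugs. The library of both drugs was the highest and the vehicle library the lowest, with the single-drug libraries level with each other. The ratio to vehicle was 2.64 with amiodarone (interval 1.94 to 3.65), 2.66 with dabigatran (1.94 to 3.68) and 7.37 with both (5.57 to 9.91). Both drugs gave 2.79 times the level with amiodarone alone (2.32 to 3.36). They gave 2.77 times the level with dabigatran alone (2.30 to 3.36). The amiodarone step was 2.64 without dabigatran and 2.77 with it, and the quotient of these ratios was 1.05 (0.734 to 1.5). Among all genes compared, Marco held place 12 from the top for dabigatran against vehicle, place 9 for both drugs against amiodarone, place 87 for both drugs against dabigatran and place 237 for amiodarone against vehicle. The median ratio to vehicle of the general macrophage markers was 1.56, 1.08 and 1.60 with amiodarone, dabigatran and both drugs, and that of the alveolar macrophage markers 1.27, 1.09 and 1.90. Single genes of these lists spread widely about the medians. Chil3, a chitinase-like gene of alveolar macrophages, had ratios of 8.10, 1.26 and 10.4, and Fcgr1, the high-affinity IgG receptor, 4.37, 1.27 and 2.99. Other alveolar macrophage genes went the other way, with Ear1 at 0.201, 1.10 and 0.462 and Cidec at 0.464, 1.15 and 0.873. Of the 13 alveolar macrophage genes, 6 were at least 1.5-fold higher and 3 lower with amiodarone than with vehicle.

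Msr1 (chromosome 8, 39543232 to 39642750) encodes the other class A receptor among the 8 members, and its product takes up acetylated and oxidized low-density lipoprotein. It had 0.740 FPKM (43 reads) in the vehicle library, 2.94 (160 reads) under amiodarone, 1.08 (55 reads) under dabigatran and 2.84 FPKM (166 reads) under both. The libraries with amiodarone were high and those without it low. Its ratio of amiodarone to vehicle, 3.97 (2.82 to 5.70), was the highest of the 8 members, and that of both drugs to dabigatran was 2.63 (1.93 to 3.64). Between both drugs and amiodarone the ratio was 0.966, and its interval of 0.773 to 1.21 leaves the direction undecided. The ratio of dabigatran to vehicle, 1.46 (0.962 to 2.23), has an interval that includes 1.

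Mrc1 (chromosome 2, 14229414 to 14332023) encodes the mannose receptor CD206, which clears glycoproteins with exposed mannose and is present on alveolar and on alternatively activated macrophages. It had 6.50 FPKM (600 reads) in the vehicle library, 12.2 (1210 reads) under amiodarone, 6.56 (614 reads) under dabigatran and 14.0 FPKM (1396 reads) under both drugs. The vehicle and dabigatran libraries were level, with a ratio of 1.01 (0.900 to 1.13), and the libraries with amiodarone were high. The amiodarone step was 1.88 (1.71 to 2.08) without dabigatran and 2.13 (1.94 to 2.35) with it, and both drugs gave 1.14 times the level of amiodarone alone (1.06 to 1.23).

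Olr1 (chromosome 6, 129479150 to 129507350) encodes LOX-1, a lectin-like receptor for oxidized low-density lipoprotein that endothelial cells carry as well as macrophages. It had 1.19 FPKM (63 reads) in the vehicle library, 2.87 (168 reads) under amiodarone, 1.73 (100 reads) under dabigatran and 3.54 FPKM (234 reads) under both. As for Mrc1, both libraries with amiodarone were above both without it. The ratio to vehicle was 2.41 with amiodarone (1.80 to 3.28) and 1.45 with dabigatran (1.05 to 2.03), and the ratio of both drugs to dabigatran was 2.05 (1.61 to 2.61). Both drugs gave 1.23 times the level of amiodarone alone (1.01 to 1.51).

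**Figure D3:**
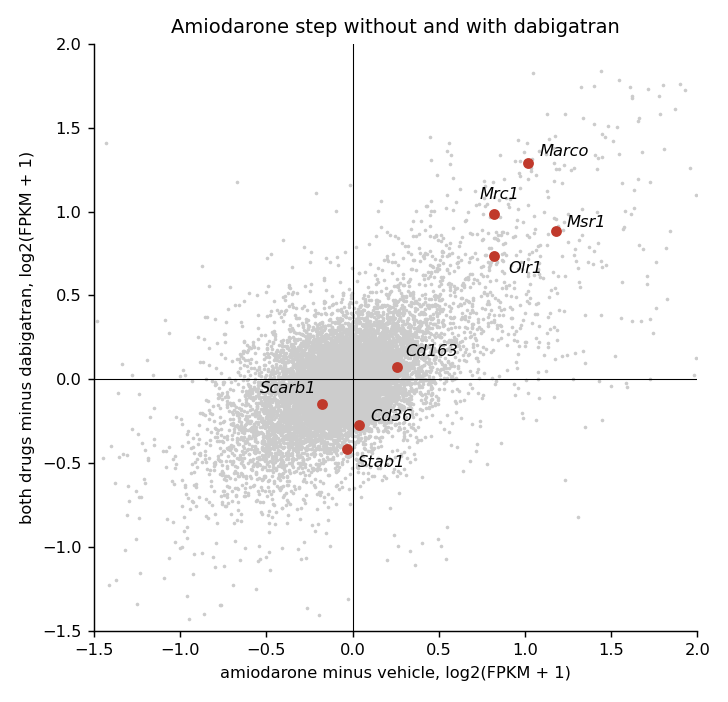
Each grey point is 1 of the 13536 genes with at least 1 FPKM in some library (72 lie outside the axes), with the log2(FPKM + 1) difference of amiodarone minus vehicle on the horizontal axis and of both drugs minus dabigatran on the vertical axis, which share no library. Marco, Mrc1, Msr1 and Olr1 (red) lie at 0.82 to 1.18 on the first and 0.73 to 1.29 on the second axis, and Cd36, Scarb1 and Stab1 between -0.18 and 0.04 on the first and between -0.42 and -0.15 on the second.

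The class B receptors Cd36 and Scarb1 were the most abundant members and had the narrowest ranges over the 4 libraries. Cd36 (chromosome 5, 17781690 to 17888959), which imports long-chain fatty acids and binds oxidized lipoprotein and thrombospondin, had 298 FPKM in the vehicle library, 306 under amiodarone, 336 under dabigatran and 278 FPKM under both drugs, from 14574 to 16607 reads. The dabigatran library was the highest and the library of both drugs the lowest. With this many reads the counting intervals were narrow, and the ratio was 1.13 for dabigatran against vehicle (1.10 to 1.15) and 0.828 for both drugs against dabigatran (0.810 to 0.847). Endothelial markers, 11 genes including Cdh5 and Pecam1, had a median ratio to vehicle of 1.07 with amiodarone, 1.15 with dabigatran and 0.923 with both drugs, beside 1.03, 1.13 and 0.933 for Cd36. Single endothelial genes spread about these medians, from 0.730 (Prox1) to 1.45 (Gpihbp1) with amiodarone and from 0.736 (Kdr) to 1.24 (Gpihbp1) with both drugs. With both drugs against dabigatran 2 of 10 endothelial genes were at least 1.5-fold lower, Ednrb at 0.627 and the VEGF receptor Kdr at 0.633 times the dabigatran level. Their part in the Cd36 values was not tested. The summed level of the adipocyte markers was 102 FPKM in the vehicle library, 59.5 under amiodarone, 148 under dabigatran and 76.0 FPKM under both drugs. A large part of this sum was Cfd, at 62.8, 21.3, 106 and 41.5 FPKM. Lipe, at 23.9, 31.3, 23.1 and 25.2 FPKM, was higher with amiodarone than with vehicle. The part of adipocytes in the Cd36 values was not tested either. Scarb1 (chromosome 5, 125277087 to 125341094), the receptor that exchanges cholesterol with high-density lipoprotein, had 54.3 FPKM in the vehicle library, 47.8 under amiodarone, 52.9 under dabigatran and 47.7 FPKM under both. The libraries with amiodarone were lower than their counterparts, with a ratio of 0.881 (0.830 to 0.934) without dabigatran and 0.901 (0.850 to 0.956) with it. Neither gene reached 1.5-fold in any comparison.

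Stab1 and Cd163 are receptors for altered self-proteins and for haemoglobin. Stab1 (chromosome 14, 31139017 to 31168651) encodes stabilin-1, which takes up the matrix protein SPARC and modified lipoprotein in macrophages and sinusoidal endothelium. It had 13.7 FPKM in the vehicle library, 13.3 under amiodarone, 15.9 under dabigatran and 11.7 FPKM under both drugs, the same order of libraries at the top and bottom as Cd36. The ratio of both drugs to dabigatran, 0.734 (0.689 to 0.782), was the lowest of any member in the 4 comparisons and lies within 1.5-fold, while that of amiodarone to vehicle was 0.978 (0.918 to 1.04). Cd163 (chromosome 6, 124304636 to 124330529) encodes the receptor for haptoglobin-haemoglobin complexes. It was near the lower limit of the comparison, with 0.750 FPKM (57 reads) in the vehicle library, 1.09 (86 reads) under amiodarone, 1.27 (96 reads) under dabigatran and 1.39 FPKM (114 reads) under both. The vehicle library was the lowest. The ratio to vehicle was 1.45 (1.03 to 2.07) with amiodarone, 1.69 (1.21 to 2.39) with dabigatran and 1.85 (1.34 to 2.59) with both. On the log2(FPKM + 1) scale the dabigatran difference was 0.38, below the threshold. Counted with a pseudocount of 0.1 or on read counts scaled to library totals, Cd163 passed it.

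**Figure D4:**
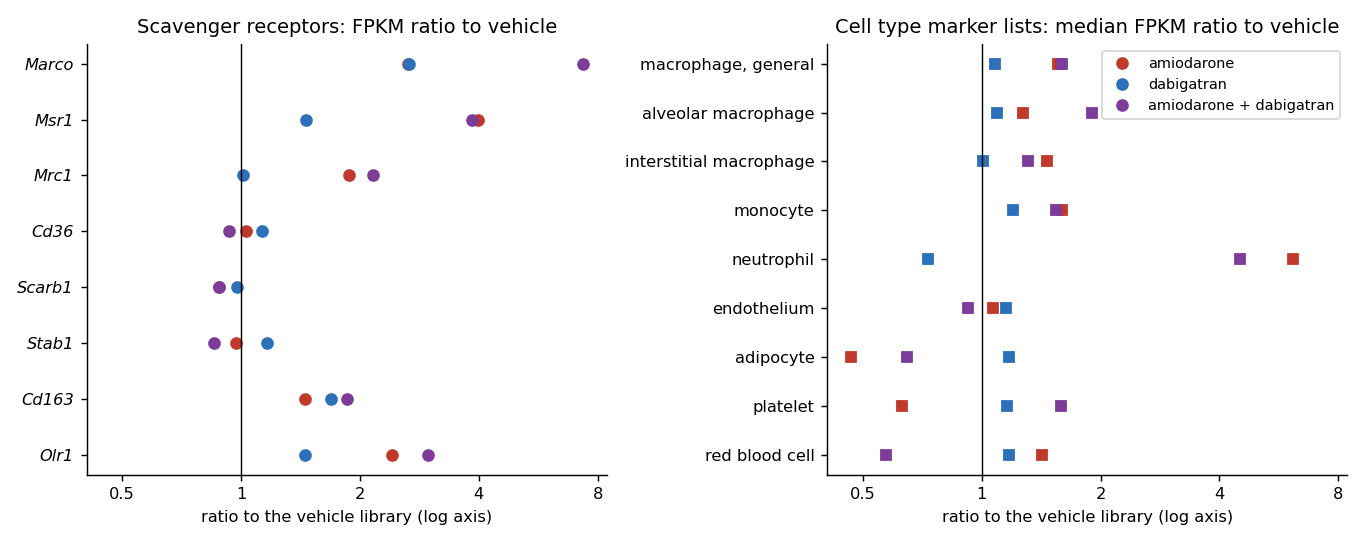
Points on the left show each receptor's FPKM as a ratio to the vehicle library, and squares on the right show the median of such ratios over the genes of each cell type marker list with at least 1 FPKM in vehicle, both on a log axis and coloured by library. Marco reaches 7.37 with both drugs, where the medians of the macrophage lists are 1.31 to 1.90. Single alveolar macrophage genes, which are not drawn on their own, lie on both sides of these medians, with Chil3 at 10.4 and Ear1 at 0.462. Cd36 and Stab1 lie between 0.854 and 1.16, beside 0.923 to 1.15 for the endothelial list.

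A further 18 genes of scavenger and related uptake receptors were compared, of which 15 had at least 1 FPKM with amiodarone or vehicle. Cd68 and Clec7a were higher with amiodarone, Mrc2 was lower, and 12 were within 1.5-fold. Cd68, a lysosomal macrophage glycoprotein, had 28.6 FPKM in the vehicle library, 77.2 under amiodarone, 25.8 under dabigatran and 89.2 FPKM under both drugs, a ratio of amiodarone to vehicle of 2.70 (2.46 to 2.97). Clec7a, the beta-glucan receptor dectin-1, had 14.0, 29.8, 15.8 and 40.7 FPKM in the same order. Mrc2, a collagen-uptake receptor of fibroblasts related to Mrc1, had 23.5, 14.3, 32.3 and 19.5 FPKM, so that these relatives of the mannose receptor went opposite ways with amiodarone. For dabigatran against vehicle 0 of 15 passed the threshold. For both drugs against amiodarone 1 of 16 did, Cd5l, which encodes a secreted protein of macrophages with the cysteine-rich domain also found in MARCO and CD163. Cd5l had 3, 8, 16 and 76 reads with vehicle, amiodarone, dabigatran and both drugs (0.0900, 0.220, 0.450 and 2.03 FPKM), and the ratio of both drugs to amiodarone was 9.23, with a wide interval of 4.45 to 22.1. As for Marco, the vehicle library was the lowest and that of both drugs the highest, but the ratio to vehicle rests on 3 reads, at 2.44 with amiodarone (0.587 to 14.3) and 22.6 with both drugs (7.43 to 112), and with an interval of 1.43 to 26.8 for dabigatran. Both drugs against dabigatran gave 3 higher genes (Cd5l, Cd68 and Clec7a), 2 lower genes (Mrc2 and Scara3) and 11 within 1.5-fold. The median log2 difference over the compared genes was 0.02 for amiodarone against vehicle and 0.17 for both drugs against amiodarone.

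Among 13 ligands and signalling partners of the receptors, 11 could be compared for amiodarone against vehicle, and Apoe and Sftpd were higher, Thbs1 was lower and 8 were within 1.5-fold, with a median of 0.27. Apoe, the lipoprotein component secreted by macrophages, had 393 FPKM in the vehicle library, 720 under amiodarone, 383 under dabigatran and 705 FPKM under both drugs, and was, like Msr1, high in the libraries with amiodarone. Sftpd, the lung collectin, had 481, 828, 477 and 594 FPKM. Thbs1, whose product thrombospondin-1 binds CD36, had 64.7, 38.5, 77.9 and 26.6 FPKM, with a ratio of 0.596 for amiodarone against vehicle (0.573 to 0.619) and of 0.341 for both drugs against dabigatran (0.327 to 0.356). Sparc, the ligand of stabilin-1, was at 737, 540, 860 and 594 FPKM. For dabigatran against vehicle 0 of 10 passed the threshold, and for both drugs against amiodarone 0 of 11. Both drugs against dabigatran gave Apoe as higher, Thbs1 as lower and 9 within 1.5-fold.

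Haem and iron genes act downstream of CD163. Of 8 such genes 0 passed 1.5-fold with amiodarone against vehicle, with a median log2 difference of 0.30, and 1, the phagosomal metal transporter Slc11a1, passed with both drugs against dabigatran, where the median was 0.44. Neither dabigatran against vehicle nor both drugs against amiodarone gave any (0 of 8 each). Hmox1, which degrades haem, had 26.7 FPKM in the vehicle library, 37.1 under amiodarone, 27.5 under dabigatran and 37.7 FPKM under both drugs. The iron exporter Slc40a1 had 2.92, 4.81, 3.11 and 4.95 FPKM. The CD163 ligand Hp, haptoglobin, stood at 881, 749, 829 and 767 FPKM.

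For each member that passed the threshold with amiodarone, the 3 genes of nearest pattern were found among 10034 genes with at least 5 FPKM in some library, by the Euclidean distance between their log2(FPKM + 1) differences from vehicle in the 3 treated libraries, a measure over few libraries that share the vehicle library. For Mrc1 these were Itgam (distance 0.05), the alpha chain of the myeloid integrin Mac-1, then Cd300ld and Igsf6 (0.09 each), and Itgam had 5.30, 10.4, 5.47 and 11.7 FPKM with vehicle, amiodarone, dabigatran and both drugs. For Msr1 they were Cd300c2 (0.18), Arrdc2 and Clec4n (0.22 each), of which Clec4n encodes the fungal-mannan receptor dectin-2. Because 1 FPKM is added, members of low level can lie near genes whose FPKM ratios are smaller. Msr1 went from 0.740 to 2.94 FPKM between vehicle and amiodarone, a ratio of 3.97, and Cd300c2 from 6.24 to 14.8 FPKM, a smaller ratio. For Olr1 they were Bcl2a1d (0.18), Pde4b (0.20) and Il18bp (0.21). Marco had no neighbour this close among these genes. Its nearest were Ppp1ccb at 0.60, whose reads may be shared with the near-identical gene Ppp1cc, the fatty acid desaturase Scd1 at 1.04 and H2-Q9 at 1.09. Scd1 had 314, 879.7, 376 and 1075 FPKM, and so did not show the step with dabigatran alone that Marco had.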

How the data were processed

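Lung RNA of 4 mouse groups, 1 library each, was grouped by the treatment label. DNBseq reads were aligned by the authors to GRCm38.p6 (HISAT) and to gene sequences (Bowtie2). From these, per the authors, RSEM gave each estimated count per gene of the deposited table, rounded here to whole reads for intervals. The table also holds a value per library read as FPKM on a linear scale. The FPKM unit was inferred from the deposited values. Another 8 deposited columns, means over 2 libraries, were not used. Total reads were 17498486 to 18903401, and a count of 0 allows 3 reads.

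Ratios of FPKM were given exact Clopper-Pearson intervals (95%, scipy 1.17.1), and the interval of a quotient of ratios is a normal approximation on the log scale. Both cover counting error only, since 1 library per group gives no spread between animals. PCR copies are not independent molecules, so the counting error itself may be understated. The 1.5-fold threshold, the pseudocount of 1 and the minimum of 1 FPKM were compared with 2-fold, 0.1, 5 FPKM, no minimum, read counts scaled to library totals and median-ratio scaling. The study's methods ran no test on 1 library per group, and none was run here. Members and gene lists were chosen with earlier results of these data known. Named genes are the members, up to 3 genes per list with the largest amiodarone difference, genes whose role is described, and the 3 of nearest pattern. Cd5l, Scara3, Slc11a1, Ednrb and Kdr were also named as the few genes past the threshold. Lyz2, Aif1, Lipe and further endothelial and interstitial macrophage genes were named after their values were seen. Of the alveolar macrophage list 13 of 15 symbols were matched. Gene identifiers matched RefSeq for 17669 genes (99.4%).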

Additional observations from a re-analysis of the deposited data

Results flagged for a closer look

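The difference between libraries with and without dabigatran went opposite ways for Cd36 and Stab1 depending on amiodarone, with intervals of counting error that exclude 1 on both sides. For Cd36 the ratio was 1.13 for dabigatran against vehicle and 0.908 for both drugs against amiodarone (0.888 to 0.929). For Stab1 the ratios were 1.16 (1.09 to 1.24) and 0.873 (0.819 to 0.932). The quotient of the amiodarone ratios with and without dabigatran was 0.806 (0.781 to 0.832) for Cd36 and 0.751 (0.687 to 0.820) for Stab1. All 4 ratios lie within 1.5-fold, each rests on 1 library per group, and the difference was not tested across animals. How many of all genes change direction in this way was not counted. The endothelial markers had a median ratio to vehicle of 1.15 with dabigatran, and of 1.07 with amiodarone against 0.923 with both drugs. Pecam1, Cdh5, Tie1, Tek, Gpihbp1, Ednrb and Flt4 changed direction as Cd36 and Stab1 did, with intervals that exclude 1 on both sides. Cldn5, Kdr, Emcn and Prox1 did not. The part of endothelial cells in the Cd36 and Stab1 values was not tested.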

How the results depend on the processing

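The number of members past the threshold for amiodarone against vehicle (4) was 2 at 2-fold and 1 (Mrc1) with a minimum of 5 FPKM. That minimum leaves out Marco, Msr1, Cd163 and Olr1 and takes the median from 0.54 to 0.00, beside -0.04 over all genes. For both drugs against dabigatran (4) the number was 1 at 2-fold and 2 with the 5 FPKM minimum. There the median over the 5 members left changed from 0.40 to -0.15, beside -0.00 over all genes. For dabigatran against vehicle (1) the number was 2 with a pseudocount of 0.1 and 2 on read counts scaled to library totals, in both cases with Cd163 added. It was 0 with the 5 FPKM minimum. For both drugs against amiodarone the count was 1, Marco, under every alternative run. The share of all genes past the threshold was not counted under the alternatives, so these counts have no background beside them. The other 35 of 44 counts and medians under an alternative were taken as unchanged. For a count this meant staying within 1.5 times the main count. A median had to stay between the medians of the members' lower and upper counting limits, a band that is not an interval of the median itself. Of 96 log2 differences of single members under another pseudocount or scaling, 7 moved past their counting interval, and the direction changed for 2 that lie near 0: Stab1 for amiodarone against vehicle (-0.03, and 0.02 with median-ratio scaling) and Msr1 for both drugs against amiodarone (-0.04, and 0.04 on read counts scaled to library totals). No paired analysis was possible because each group has 1 library. Leaving out a replicate was not possible for the same reason. The low members are limited by depth: with 43 and 55 reads of Msr1 in the vehicle and dabigatran libraries, a ratio of 1.46 could not be told from counting error.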

Other observations

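The library of both drugs, in which Marco was highest, also differed from that of amiodarone alone in other cell type genes. Platelet genes (Pf4, Itga2b, Gp1ba, Gp9 and Ppbp) summed to 49.2 FPKM with amiodarone and 116 FPKM with both drugs, and 4 of 5 were at least 1.5-fold higher. Red blood cell genes went the other way, with 4 of 4 lower. Of 13 alveolar macrophage genes 4 were higher with both drugs than with amiodarone (Siglecf, Ear1, Ear2 and Cidec) and 1, Ear6, was lower. Siglecf, which encodes the surface lectin Siglec-F of alveolar macrophages and eosinophils, had 2.01 FPKM in the vehicle library, 2.96 under amiodarone, 2.44 under dabigatran and 5.63 FPKM under both drugs. The ribonuclease gene Ear1 was at 22.3, 4.48, 24.4 and 10.3 FPKM for these libraries, and Ear6 was at 0.350, 64.0, 0 and 31.0 FPKM. Reads of these close copies may be divided among them by estimation.

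Other lists for amiodarone against vehicle gave 4 of 9 interstitial macrophage genes higher (C1qa, C1qb, C1qc and Lyve1), and 5 were within 1.5-fold. Lyve1 was at 104 FPKM with vehicle and 209 with amiodarone, while Folr2 of the same list was at 3.35 and 3.03 FPKM. Which cells the Lyve1 reads came from was not tested. For the same comparison 3 of 5 monocyte genes were higher, with Ly6c2 at 28.2 and 115 FPKM, and 4 of 6 adipocyte genes were lower. Of 11 endothelial genes 0 passed the threshold in either direction, as for dabigatran against vehicle, and 2 of 10 were lower with both drugs against dabigatran (Ednrb and Kdr). Of 7 lung epithelial genes 1 was lower, Scgb1a1, the club cell secretoglobin.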
